A study of Mus musculus with 4 samples.

Results

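The receptors described here were 10 genes out of 23990 gene symbols in the deposited tables, taken as a list of named genes. They were 7 members of the SLAM (signalling lymphocytic activation molecule) family, Slamf1, Slamf6, Slamf7, Ly9, Cd48, Cd84 and Cd244, and 3 receptors for nectins and nectin-like proteins, Cd226, Crtam and Cd96. Their RNA was measured in effector CD4 cells (CD44+CD4) of wild type C57BL/6 mice (C57BL/6J in the methods) with experimental autoimmune encephalomyelitis (EAE), a model of multiple sclerosis. The mice of both groups had been immunized with MOG peptide in complete Freund's adjuvant with pertussis toxin and are labelled wild type. The groups differed in sex-linked RNA. Y-linked Ddx3y was at 12.7 and 11.2 FPKM in CNS and listed at 0 in dLN, while Xist, the RNA of the inactive X chromosome, reached no more than 0.0026 FPKM in CNS but 26.6 and 22.3 FPKM in dLN, so tissue and sex cannot be told apart. Cells were sorted at disease onset from the spinal cord (CNS, 2 libraries) or from pooled draining lymph nodes (dLN, 2 libraries). The age of the mice and the number of animals behind a library were not given in the sources used here. The methods state that sorted cells of both tissues were stimulated for some hours with PMA and ionomycin, whereas the labels describe freshly sorted cells. Among 16 genes known to be induced by stimulation, 12 were lower in CNS, 1 was higher and 3 were not called. Over all tested genes 37.2% were lower and 37.8% higher. Il2, which differed most of the 16, was lower by 202-fold in mean FPKM, while Cd69 was higher by 2.50-fold. Whether the cells of the tissues differed in stimulation was not tested. The question was how CD4 cells that had entered the CNS differed from effector cells in the lymph node.

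SLAM family receptors are surface proteins of blood cells that bind across cell contacts. Most of them bind a copy of themselves on the other cell, while Cd244 binds Cd48. The tails of several of them, but not of the lipid-anchored Cd48, recruit the small adaptor SAP (Sh2d1a), which brings in the kinase Fyn. In CD4 cells the family is known for shaping contacts with B cells and cytokine production. Cd226 and Cd96 bind Pvr (CD155), for which the inhibitory receptor Tigit competes, and Crtam binds the nectin-like protein Cadm1. Cd226 is known as a costimulatory receptor of T cells and NK cells, and Crtam as a receptor of activated T cells with cytotoxic features.

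Slamf7, Slamf1 and Slamf6 were lower in CNS, by 9.29-fold, 3.34-fold and 2.42-fold in mean FPKM, while Cd48 was 2.74-fold higher. Cd226 and Cd96 were higher in CNS by 13.4-fold and 9.74-fold. Ly9 and Cd84 were slightly lower, Crtam did not differ beyond the replicate spread, and Cd244 was close to 0 in all 4 libraries. These directions and sizes hold in FPKM. Relative to the T cell receptor subunit Cd3e, Cd48, Ly9, Cd84 and Crtam were lower in CNS, and Cd226 and Cd96 were higher by less. FPKM (mapped fragments scaled to the length of the transcript and to the depth of the library) is a level per length, so members can be set side by side. Log2 ratios below are CNS over dLN on the scale log2(FPKM + 1), which understates the change of low genes, and adjusted p-values are from limma over 10634 tested genes. The smallest p of an exact permutation test of 2 libraries against 2 is 0.333 (two-sided), so no such test is given for single genes. Nothing in the sources says that the libraries of a tissue came from separate animals. The p-values thus set the tissue difference against the spread between these libraries, moderated with that of other genes, and not against a known spread between animals. In bulk RNA, fewer cells of a type and less RNA per cell cannot be told apart.

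**Figure D1:**
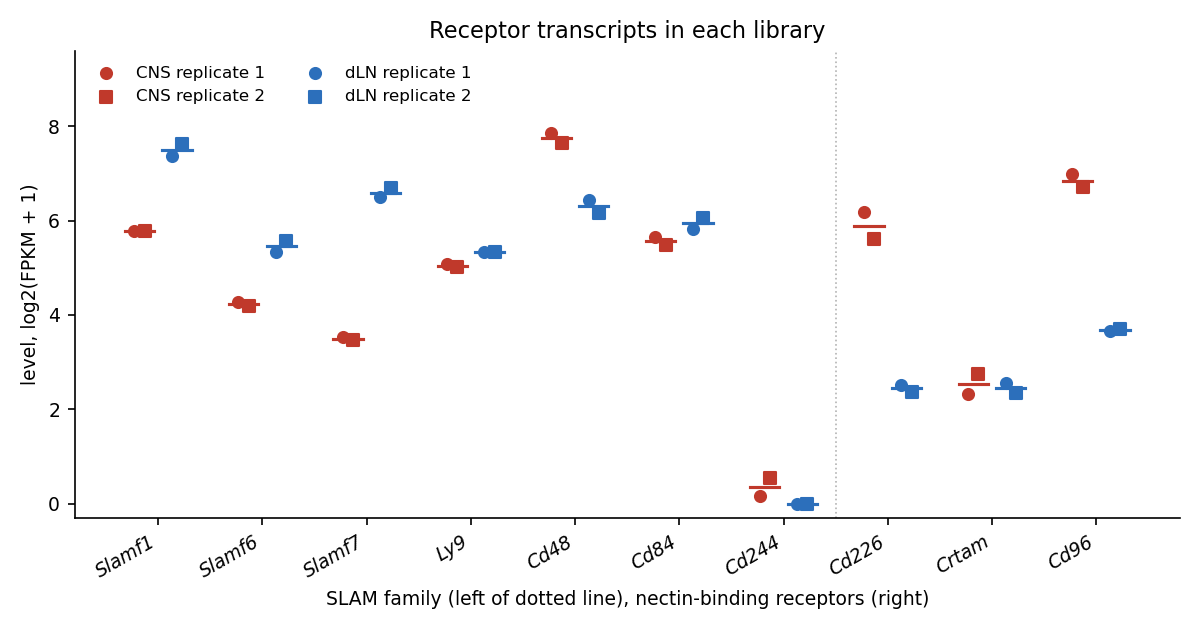
Level of the 10 receptor genes as log2(FPKM + 1) in each of the 4 libraries, with CNS in red and dLN in blue, replicate 1 as circles and replicate 2 as squares, and a line at the mean of each tissue. The CNS points of Slamf1, Slamf6 and Slamf7 lie below the dLN points, those of Cd48, Cd226 and Cd96 lie above them, and those of Crtam overlap.

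Of the 10 genes, 9 reached a mean of 1 FPKM in a tissue and were tested, and 8 of these had an adjusted p under 0.05. Over all tested genes 74.9% passed, so the count alone does not set the receptors apart. Of the 9, 3 were higher in CNS and 5 lower, against 37.8% and 37.2% of all tested genes. In these 8 genes the libraries of the tissues did not overlap, which was so for 89.4% of all tested genes. Of the 9, 6 passed and also differed by 1 or more on the log2 scale, against 39.2% of all tested genes. For Slamf7, Cd226 and Cd96 the log2 ratio was over 3 in size, which 3.76% of all tested genes reached together with an adjusted p under 0.05. The receptors were chosen with earlier results of these data known, so these shares describe them and do not test whether they stand out. The median log2 ratio was -0.80 over the 6 tested SLAM family genes and 3.17 over the 3 nectin-binding receptors, beside 0.045 over all tested genes. Neither median held for each gene of its group, with Cd48 at 1.45 in the SLAM family and Crtam at 0.085 among the nectin-binding receptors.

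**Figure D2:**
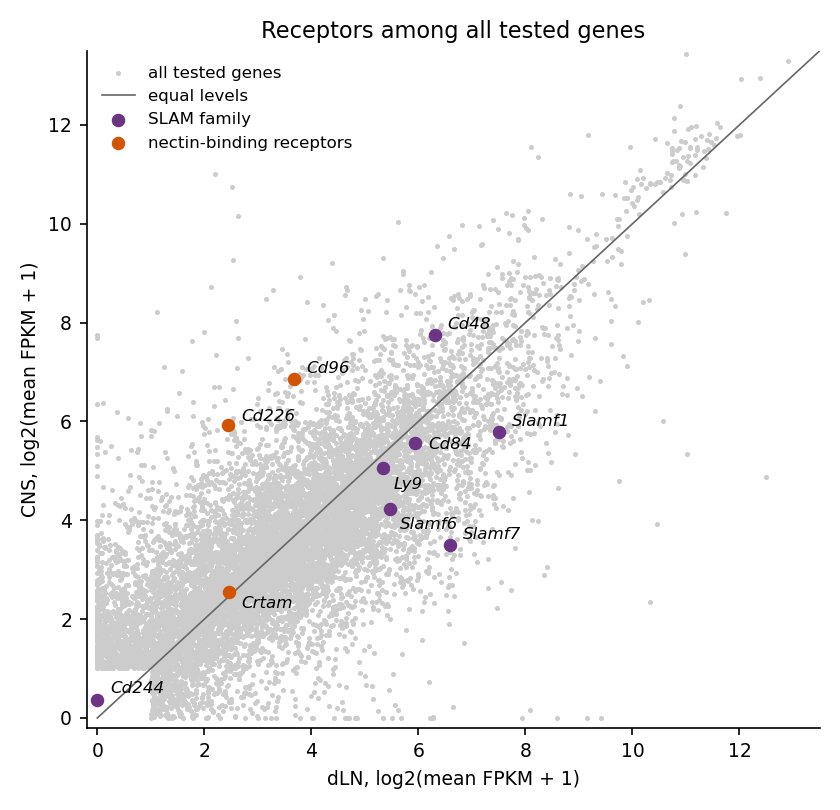
Mean level of each tested gene in dLN (x axis) and CNS (y axis), both as log2(mean FPKM + 1), in grey, with a line at equal levels. The SLAM family genes are in purple and the nectin-binding receptors in orange; Cd226 and Cd96 lie above the line, Slamf7 and Slamf1 below it, and Cd244 lies under the filter.

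The RefSeq sequences upstream of the genes are shown for the members that differed by 1 or more on the log2 scale and whose RefSeq start lay within 100 bases of the start deposited by the authors. They run from 250 bases before to 50 bases from the start site, 5′ to 3′ on the strand of the gene, in build GRCm38.p6. Capitals mark matches on either strand to AP-1 (TGANTCA), NFAT (TGGAAA), kappaB (GGGA and CC with 4 bases of any kind between) or RUNX (TGTGGT) letters, named for factors that T cells are known to use. Slamf1 and Slamf6 were lower in CNS, and Cd48 and Cd96 higher.
Slamf1 promoter (chr1:171766882-171767181, plus strand): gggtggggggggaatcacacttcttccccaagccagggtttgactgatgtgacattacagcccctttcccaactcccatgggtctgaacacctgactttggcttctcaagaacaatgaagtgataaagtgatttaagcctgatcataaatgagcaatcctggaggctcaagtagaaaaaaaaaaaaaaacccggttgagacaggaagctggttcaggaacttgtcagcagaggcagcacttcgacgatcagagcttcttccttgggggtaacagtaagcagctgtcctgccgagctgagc
Slamf6 promoter (chr1:171917212-171917511, plus strand): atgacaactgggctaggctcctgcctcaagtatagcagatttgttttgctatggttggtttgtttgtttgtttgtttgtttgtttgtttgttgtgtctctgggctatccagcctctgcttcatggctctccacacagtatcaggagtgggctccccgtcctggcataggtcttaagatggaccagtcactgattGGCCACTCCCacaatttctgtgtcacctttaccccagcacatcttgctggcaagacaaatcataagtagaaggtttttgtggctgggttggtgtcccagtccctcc
Cd48 promoter (chr1:171681742-171682041, plus strand): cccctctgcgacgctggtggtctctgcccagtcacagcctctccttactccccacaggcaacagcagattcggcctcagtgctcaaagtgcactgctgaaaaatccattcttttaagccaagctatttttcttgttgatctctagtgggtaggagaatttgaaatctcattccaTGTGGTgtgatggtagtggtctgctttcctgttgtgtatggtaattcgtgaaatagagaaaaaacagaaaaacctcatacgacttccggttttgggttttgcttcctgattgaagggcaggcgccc
Cd96 promoter (chr16:46120199-46120498, minus strand): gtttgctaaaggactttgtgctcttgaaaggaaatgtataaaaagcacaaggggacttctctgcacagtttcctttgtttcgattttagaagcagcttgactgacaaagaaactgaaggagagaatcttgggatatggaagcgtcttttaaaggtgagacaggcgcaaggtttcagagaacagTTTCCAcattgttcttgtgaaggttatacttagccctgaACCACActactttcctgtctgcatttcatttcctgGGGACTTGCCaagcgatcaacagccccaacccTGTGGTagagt
The Slamf1 window held none of the 4 motifs. That of Slamf6 held 1 kappaB match, that of Cd48 held 1 RUNX match, and that of Cd96 held 1 NFAT, 1 kappaB and 2 RUNX matches, none of which overlap. Of 32851 RefSeq promoters of the same length, 7.81% held AP-1 letters, 21.4% NFAT, 20.7% kappaB and 16.8% RUNX letters. The RefSeq start was the deposited one for Slamf1 and Cd96, and lay 63 and 75 bases from it for Cd48 and Slamf6. Of the 10 genes 7 had an entry, and that of Slamf7 started 4038 bases from the deposited start and is not shown. A match of letters is no evidence that a factor binds there.

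Slamf7 (CRACC) is a self-binding receptor known from NK cells, plasma cells and cytotoxic lymphocytes. It lies on chromosome 1 from 171632403 to 171653037 on the minus strand in build mm10. Its FPKM was 10.59 and 10.02 in CNS replicates 1 and 2, the order used below, and 89.9 and 102 in dLN. Both CNS values were low and close together, and the tissues were far apart. The log2 ratio was -3.09 ± 0.099 (SE, limma adjusted p = 8.12e-05). Among the 10 receptors Slamf7 stood in place 2 in dLN and in place 8 in CNS.

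Slamf1 (CD150), the founding receptor of the family, lies on chromosome 1 from 171767132 to 171801184 on the plus strand. It was at 54.1 and 54.0 FPKM in CNS and at 165 and 196 FPKM in dLN, where it was the highest of the 10 receptors. The CNS libraries were nearly equal and both lay below the dLN libraries. The log2 ratio was -1.72 ± 0.11 (SE, limma adjusted p = 0.0002). Slamf6 (Ly108), a self-binding receptor of T and B cells, lies on the plus strand from 171917537 to 171943868. It was at 18.4 and 17.3 FPKM in CNS and at 39.5 and 46.7 FPKM in dLN. Again both CNS libraries were below both dLN libraries, and the log2 ratio was -1.22 ± 0.11 (SE, limma adjusted p = 0.000563).

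Cd48, a lipid-anchored receptor that is carried by most blood cells and is the ligand of Cd244, was higher in CNS in FPKM. It lies on chromosome 1 from 171682055 to 171705257 on the plus strand. Its FPKM was 231 and 198 in CNS and 86.1 and 70.4 in dLN. The tissues did not overlap, and the log2 ratio was 1.45 ± 0.14 (SE, limma adjusted p = 0.000605). Set against Cd3e, a T cell receptor subunit that was itself higher in CNS, the ratio of Cd48 was 0.705 and 0.511 in CNS and 0.828 and 0.79 in dLN, so on that scale Cd48 was lower in CNS. Cd48 was the highest of the 10 receptors in CNS, at percentile 96.7 of all tested genes, and stood behind Slamf1 and Slamf7 in dLN, at percentile 90.7.

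Ly9 (CD229) and Cd84 are self-binding receptors of lymphocytes, and both differed little. Ly9 (chromosome 1, 171588613 to 171607410, minus strand) was at 32.8 and 31.3 FPKM in CNS and at 39.4 and 39.1 FPKM in dLN. Cd84 (171839697 to 171890718, plus strand) was at 49.1 and 43.5 FPKM in CNS and at 55.8 and 65.3 FPKM in dLN. For both genes the CNS libraries lay just below the dLN libraries. The log2 ratios were -0.28 ± 0.080 for Ly9 (SE, limma adjusted p = 0.0256) and -0.38 ± 0.12 for Cd84 (SE, limma adjusted p = 0.0356). Both calls depended on single libraries. For Ly9 the limma adjusted p was 0.0555 without CNS replicate 2, 0.113 without dLN replicate 1 and 0.107 without dLN replicate 2, and for Cd84 it was 0.0679 without CNS replicate 1, 0.151 without CNS replicate 2 and 0.167 without dLN replicate 2.

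Cd244 (2B4), the receptor for Cd48 and a classical NK cell receptor, lies on chromosome 1 from 171559193 to 171585316 on the plus strand. It was at 0.119 and 0.465 FPKM in CNS, which corresponds to about 9 and 36 fragments at the estimated depth, and was listed at 0 in both dLN libraries. A count of 3 fragments would be 0.0452 and 0.0381 FPKM in the dLN libraries, so the listed 0 does not exclude a level of up to about that size. Cd244 was not tested, because it stayed under the minimum, and no fold is given. A fit without the minimum gave a limma adjusted p of 0.134. Its higher value in CNS replicate 2 was shared by 8 of 9 markers of NK and CD8 cells, among them Ncr1 (0 and 0.581 FPKM in CNS), and by 15 of 16 myeloid markers. It was equally shared by 15 of 16 genes known to be induced by stimulation and by 7 of 8 B cell markers. Of the CD4 cell markers 4 of 7 were higher in that library, and of the receptors 2 of 10. The share over all genes was not computed. Whether NK, CD8 or myeloid cells gave the Cd244 reads was not tested.

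The SLAM family receptors differed in their make-up more than in their sum. Their FPKM summed to 396 and 355 in CNS and to 476 and 519 in dLN. Cd48 held 58.3% and 55.9% of that sum in CNS and 18.1% and 13.6% in dLN. Slamf1 and Slamf7 together held 16.3% and 18.0% in CNS and 53.6% and 57.3% in dLN, whereas the share of Ly9 and Cd84 together was 20.7% and 21.1% in CNS and no more than 20.1% in dLN. The ratio of Cd48 to Slamf1 was 4.26 and 3.68 in CNS against 0.521 and 0.36 in dLN. Such shares and ratios are taken within a library and do not depend on how libraries were scaled. They were chosen after the values were seen and were not tested.

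**Figure D3:**
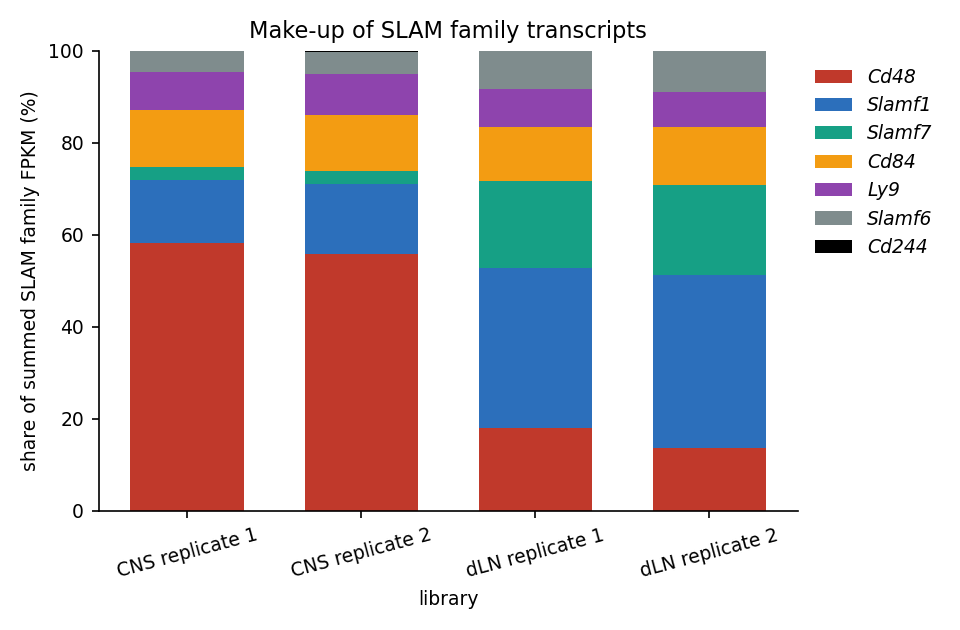
Share of each SLAM family gene, in percent, in the summed FPKM of the 7 genes, with 1 stacked bar per library. Cd48 (red) takes 58.3% and 55.9% of the CNS bars and 18.1% and 13.6% of the dLN bars, where Slamf1 (blue) and Slamf7 (green) take 53.6% and 57.3%.

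Position was not used to choose these genes. In build mm10 the 7 SLAM family genes stood in a row on chromosome 1 between 171559193 and 171943868, a span of 385 kb, in the order Cd244, Ly9, Slamf7, Cd48, Slamf1, Cd84 and Slamf6. The tables held no other named gene within that span. Cd48, which was higher in CNS, lay 29.0 kb beyond Slamf7 and 61.9 kb before Slamf1, both of which were lower. Of 24 tested genes within 500 kb on either side, a window chosen after the values were seen, 10 were higher and 4 lower in CNS and 10 did not pass the test, beside 74.9% of all tested genes that passed, with log2 ratios from -1.48 to 3.21. The other receptors lay apart, Crtam on chromosome 9, Cd96 on chromosome 16 and Cd226 on chromosome 18.

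**Figure D4:**
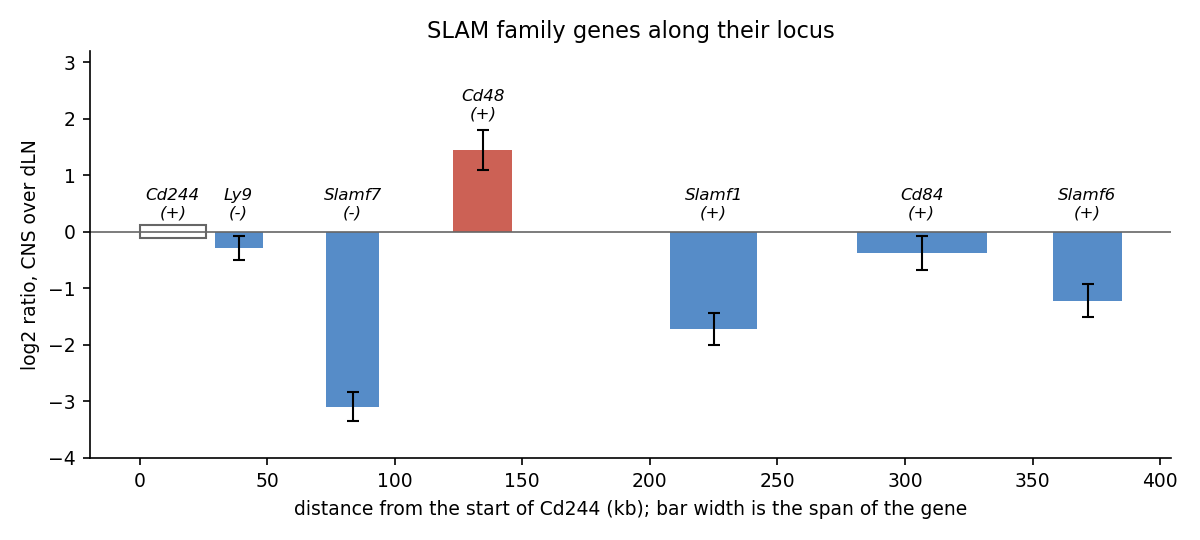
Log2 ratio (CNS over dLN) of each SLAM family gene at its place on chromosome 1, in kb from the start of Cd244, with bars as wide as the gene, 95% intervals from limma and the strand in brackets. Cd48 (1.45) stands above 0 between Slamf7 (-3.09) and Slamf1 (-1.72), and Cd244 is an open box because it was not tested.

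Among the nectin-binding receptors, Cd226 (DNAM-1; chromosome 18, 89197427 to 89270327, plus strand) was at 71.2 and 47.7 FPKM in CNS and at 4.72 and 4.19 FPKM in dLN. The CNS libraries differed from each other by 0.57 on the log2 scale, but both lay far above the dLN libraries. The log2 ratio was 3.44 ± 0.21 (SE, limma adjusted p = 0.00018). The dLN values rested on about 200 and 212 fragments. Cd96 (Tactile; chromosome 16, 46035657 to 46120248, minus strand) was at 126 and 104 FPKM in CNS and at 11.60 and 11.97 FPKM in dLN. The dLN libraries were nearly equal, and the log2 ratio was 3.17 ± 0.12 (SE, limma adjusted p = 8.98e-05). Cd226 moved from percentile 31.9 of all tested genes in dLN to 88.6 in CNS, and Cd96 from 53.9 to 94.0.

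Crtam (chromosome 9, 40972798 to 41004628, minus strand) was low in both tissues, at 4.01 and 5.76 FPKM in CNS and at 4.93 and 4.08 FPKM in dLN. The libraries of the tissues overlapped. The log2 ratio was 0.085 with a 95% interval from -0.39 to 0.56 (limma adjusted p = 0.689), so differences within that interval were not excluded with 2 libraries per tissue. Crtam rested on 150 to 218 fragments per library. Its direction depended on the scaling and on single libraries, with a log2 ratio of -0.079 when libraries were scaled to the same sum, -0.13 without CNS replicate 2 and -0.026 without dLN replicate 2.

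In CNS the order of levels was Cd48, Cd96, Cd226, Slamf1, Cd84, Ly9, Slamf6, Slamf7, Crtam and Cd244. Of neighbours in this order, Cd226 and Slamf1 overlapped and were not separated by their replicates. In dLN the order was Slamf1, Slamf7, Cd48, Cd84, Slamf6, Ly9, Cd96, Crtam, Cd226 and Cd244, and Crtam and Cd226 overlapped. The nectin-binding receptors Cd96 and Cd226 thus stood directly behind Cd48 in CNS and behind all SLAM family genes but Cd244 in dLN.

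For 4 of the receptors the tables list more than one RefSeq transcript, and the split between them is an estimate, since they share most of their sequence. The shortest Ly9 transcript, of 2169 bases, held 3.18% and 2.97% of the Ly9 FPKM in CNS and 7.79% and 8.19% in dLN. For Cd84, the transcript of 3521 bases, which ends early and spans 15.4 kb of the 51.0 kb gene, was at 0.551 and 0.341 FPKM in CNS and at 1.60 and 1.91 FPKM in dLN. Both minor transcripts were thus higher in the dLN libraries, by more than the replicates differed. The Cd226 transcript of 2487 bases held between 95.8% and 98.0% in every library. The Crtam transcripts differ in length by 1936 against 1939 bases, and their split varied between replicates from nearly 0% to 17.6% for the shorter, so it is not interpreted.

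Among the other receptors of these families, only Tigit passed the test. Tigit, the inhibitory receptor that shares Pvr with Cd226 and Cd96, was at 148 and 160 FPKM in CNS and at 358 and 319 FPKM in dLN. It was lower in CNS, with a log2 ratio of -1.13 ± 0.095 (SE, limma adjusted p = 0.00043). The ratio of Cd226 to Tigit was 0.482 and 0.298 in CNS and 0.0132 and 0.0131 in dLN, and that of Cd96 to Tigit 0.852 and 0.646 in CNS and 0.0324 and 0.0375 in dLN. Tigit exceeded both receptors in every library, but by a smaller factor in CNS. Slamf8 and Slamf9, SLAM family receptors known from myeloid cells, were listed at 0 in both dLN libraries. In CNS replicates 1 and 2, Slamf8 was at 0.101 and 2.70 FPKM and Slamf9 at 0.0481 and 1.26 FPKM. Slamf8 did not pass the test (log2 ratio 1.01, limma adjusted p = 0.173). Its log2 ratio was 1.89 without CNS replicate 1 and 0.14 without CNS replicate 2, and since both dLN libraries were at 0 no call is read from those fits. The 16 myeloid markers summed to 26.2 and 382 FPKM in these CNS libraries and to 4.38 and 3.93 FPKM in dLN, where 10 of them were listed at 0, among them Csf1r, C1qa and S100a8. The part of myeloid cells in Slamf8 and Slamf9 was not tested.

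Of the ligands, Pvr was the only one of 6 that reached the minimum. It was at 8.61 and 8.65 FPKM in CNS and at 12.7 and 13.3 FPKM in dLN, and was lower in CNS (log2 ratio -0.54, limma adjusted p = 0.00373). Nectin1 to Nectin4, listed as Pvrl genes, and Cadm1, the ligand of Crtam, were each under 1 FPKM in every library.

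In FPKM, the adaptor SAP and its kinase moved in opposite directions. Sh2d1a was at 66.8 and 51.6 FPKM in CNS and at 17.9 and 14.4 FPKM in dLN, a log2 ratio of 1.81 ± 0.17 (SE, limma adjusted p = 0.000606). Fyn was at 105 and 106 FPKM in CNS and at 229 and 256 FPKM in dLN, a log2 ratio of -1.19 ± 0.087 (SE, limma adjusted p = 0.000296). For both genes the tissues did not overlap. Cd3e had a log2 ratio of 1.88, slightly above that of Sh2d1a. The higher Sh2d1a in CNS is thus a result in FPKM and was not seen to exceed that of Cd3e. The SAP-related adaptors Sh2d1b1 and Sh2d1b2 were at most 0.149 FPKM in any library.

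Of 17 listed genes that act downstream of these receptors, all were tested, 13 were higher and 2 lower in CNS, against 37.8% and 37.2% of all tested genes, and their median log2 ratio was 1.19. Inpp5d (SHIP-1), an inhibitory lipid phosphatase, was at 57.0 and 55.3 FPKM in CNS and at 11.3 and 7.31 FPKM in dLN (log2 ratio 2.50, limma adjusted p = 0.000381). Itgal and Itgb2, the chains of the integrin LFA-1 with which Cd226 associates, had log2 ratios of 2.04 and 1.29. Pik3r1 (2.02), Plcg1 (1.95), Ptpn6 (1.72), Dok2 (1.63), Vav1 (1.27), Plcg2 (1.19), Dok1 (1.10), Prkcq (0.92), Csk (0.65) and Grb2 (0.43) were higher as well in log2 ratio. These are adaptors, kinases, phosphatases and lipid enzymes of antigen receptor and SLAM signalling. Beside the log2 ratio of 1.88 of Cd3e, only Inpp5d, Itgal, Pik3r1 and Plcg1 of the 17 genes had a larger one. The genes lower in CNS were Rasa1, the RasGAP that acts with Dok proteins (-0.41), and Ptpn11, the phosphatase SHP-2 (-0.33), while Bcl10 (-0.15) and Dlg1 (-0.23) did not pass. Scaled to the same sum, Bcl10 (-0.34) and Dlg1 (-0.41) passed and Grb2 (0.23) did not, and scaled to the same upper quartile Rasa1 (-0.29) and Ptpn11 (-0.20) did not. With 1 library left out, some calls were lost. For Dok2 the limma adjusted p was 0.055 without CNS replicate 1 and 0.0526 without CNS replicate 2, at nearly unchanged log2 ratios of 1.64 and 1.63. The others were Rasa1 (0.0921, 0.113 and 0.104 without CNS replicate 1, CNS replicate 2 and dLN replicate 1), Ptpn11 (0.0587, 0.0956 and 0.0912 without CNS replicate 1, dLN replicate 1 and dLN replicate 2) and Grb2 (0.0553 without dLN replicate 2).

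**Figure D5:**
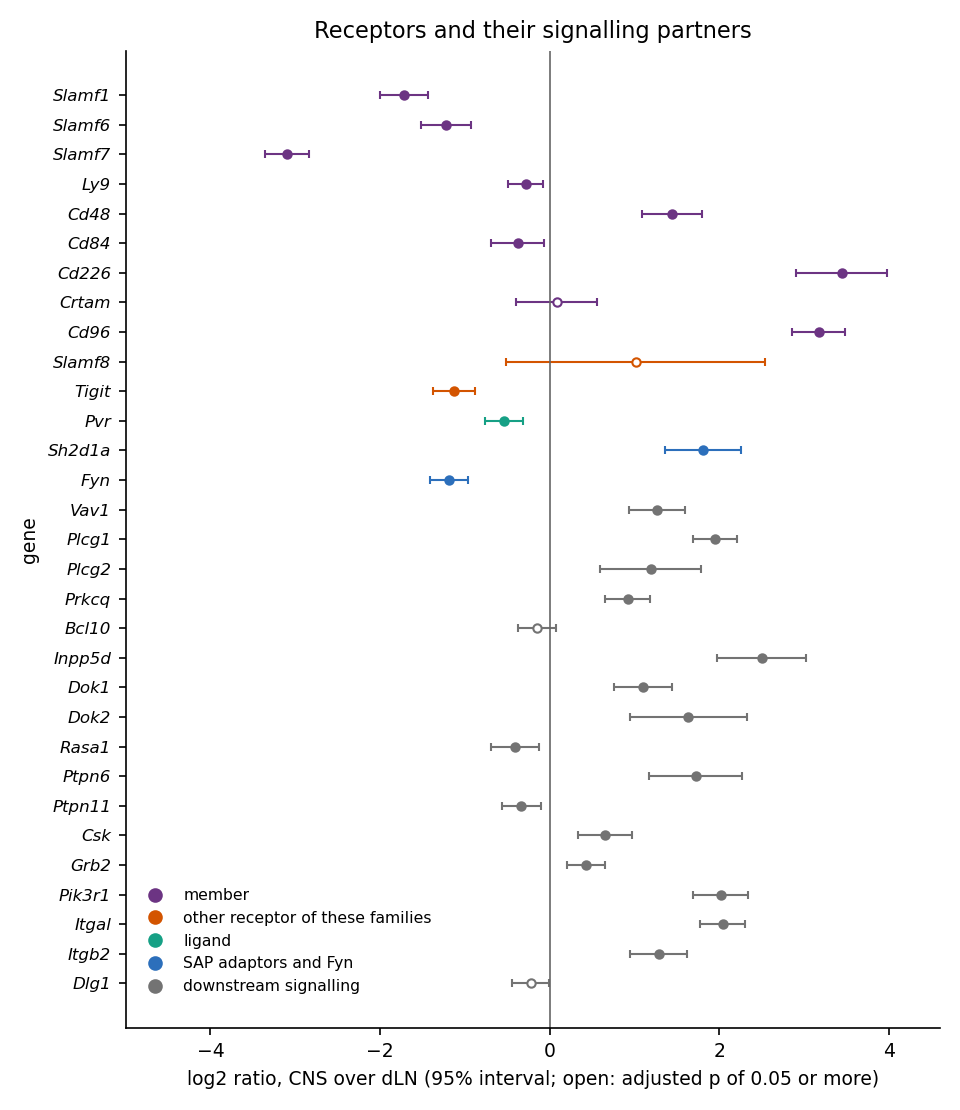
Log2 ratio (CNS over dLN) with its 95% interval from limma for the 9 tested receptors and 22 tested partner genes, coloured by role, with open circles where the adjusted p was 0.05 or more. Downstream genes lie mostly right of 0, with Inpp5d at 2.50, while Fyn (-1.19) and Tigit (-1.13) lie left of it.

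Other features of the libraries ran with the tissues. The estimated depth lay between 18.6 M and 22.0 M fragments. Cd4 was at 502 and 531 FPKM in CNS and at 82.0 and 66.7 FPKM in dLN, Cd8a at most at 0.834 FPKM, and Cd8b1 at 3.66 and 4.56 FPKM in CNS and 3.38 FPKM in both dLN libraries. All 7 CD4 cell markers were tested, and 5 were higher and 2 lower in CNS. Cd3e was at 328 and 389 FPKM in CNS and at 104 and 89.2 FPKM in dLN, so ratios to it are lower in CNS than the FPKM alone. Set against Cd3e of the same library, the ratio of Cd96 was 0.385 and 0.267 in CNS and 0.112 and 0.134 in dLN, and that of Cd226 0.218 and 0.123 in CNS and 0.0454 and 0.047 in dLN. On that scale the receptors with little difference in FPKM were lower in CNS, Ly9 at 0.1 and 0.0807 against 0.379 and 0.439 in dLN, Cd84 at 0.15 and 0.112 against 0.537 and 0.732, and Crtam at 0.0122 and 0.0148 against 0.0474 and 0.0457. The counts that follow stand beside 37.8% of all tested genes higher and 37.2% lower in CNS. Of 16 genes known to be induced by stimulation, all tested, 12 were lower and 1 higher in CNS, and of 8 genes of resting T cells, all tested, 5 were higher and 2 lower. Higher in CNS were 7 of 12 tested myeloid markers, 2 of 3 tested NK and CD8 cell markers and the 1 tested B cell marker, of 16, 9 and 8 listed, with sums of 7.86 and 12.7 FPKM in CNS and 3.50 and 3.46 FPKM in dLN for NK and CD8 cells and at most 2.63 FPKM for B cells, whose Pax5 was at 0 throughout. Of 4 tested dendritic cell markers none was higher and 1 lower, and of 3 tested neural markers 1 was higher and 1 lower, with sums of 1.98 to 9.37 and 49.8 to 58.0 FPKM. The part of stimulation or other cells in the receptor differences was not tested, and tissue and table cannot be told apart.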

How the data were processed

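RNA of effector CD4 cells was compared between CNS (2 libraries) and dLN (2 libraries). The authors trimmed the reads, mapped them to mouse build mm10 and deposited FPKM per RefSeq transcript, in 1 table per tissue with 33819 transcripts each, along with the transcript length and other annotation columns. The aligner and the program that computed FPKM are not given in the sources used here. The CNS table names both libraries in a single header cell, and its value columns were taken in the order of those names. Deposited starts, which count from 0, were moved by 1 base.

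FPKM was summed by gene symbol over transcripts, which left out 565 transcripts without a symbol (0.142% to 0.446% of the FPKM of a library). A gene was tested if its mean reached 1 FPKM in either tissue. Tissues were compared on log2(FPKM + 1) by a linear model in limma 3.58.1 under R 4.3.3, using moderated variances with a mean trend and no covariate. P-values were adjusted by the Benjamini-Hochberg method across the 10634 tested genes, and calls were made at 0.05. Across genes, which are not independent, replicates correlated on the log2 scale with Pearson's r of 0.976 (CNS) and 0.986 (dLN). Depth was estimated from low FPKM values of genes with 1 transcript, of which 91.8% to 93.9% lay within 0.1 of a whole fragment (20% by chance at a fixed depth). Depth and a shift in length were chosen to bring these same values closest to whole fragments, so that share does not test the estimate. Both steps were run on simulated data. For the linear model, a small part of the genes was changed, by more than Ly9 and Cd84 differed. That simulation thus does not bear on calls as small as those. Python 3.11.15, numpy 2.4.6, pandas 2.3.3 and matplotlib 3.10.9 were used for the rest. Strand came from GENCODE M21 and promoters from RefSeq GRCm38.p6.

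The named genes were the 10 receptors, 31 listed ligands, adaptors, other receptors and downstream genes (30 of them in the tables), the genes of the locus, and markers where they stand beside a result. The members and lists were chosen with earlier results of these data known. The fit was repeated with other pseudocounts, filters and scalings, with the highest transcript per gene, with replicate number as a block, with no variance trend, with a minimum difference, and after removal of each library in turn.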

Additional observations from a re-analysis of the deposited data

How the results depend on the processing

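Of 125 comparisons of the tested receptors under alternative settings, 110 changed neither sign nor call, 12 lost the call and 3 changed sign. The log2 ratios of Slamf1, Slamf6, Slamf7, Cd48, Cd226 and Cd96 kept sign and call under each of the 14 alternatives, with Slamf7 between -3.28 and -2.97, Cd226 between 3.16 and 3.73 and Cd48 between 1.25 and 1.59. None of these alternatives scaled to Cd3e, against which Cd48 was lower in CNS. The lost calls were all of Ly9 (limma adjusted p from 0.00615 to 0.161) and Cd84 (0.0116 to 0.167), at log2 ratios of -0.15 and -0.245 with the same upper quartile. The changes of sign were of Crtam, to -0.079 with the same FPKM sum, and its log2 ratio lay between -0.13 and 0.30 with each library left out in turn. Among the partner genes Dlg1 changed sign to 0.076 with the highest transcript. None of these values passed the test. Of 306 comparisons of partner genes 13 lost and 5 gained a call, the gains being Dlg1 (adjusted p = 0.0106 with the same sum and 0.0487 with the filter at 5 FPKM), Bcl10 (0.0227 with the same sum) and Slamf8 (2 fits with 1 CNS library). Scaling to the same sum shifted the median log2 ratio of all genes by -0.17 and to the same upper quartile by 0.12, shifts smaller than the Ly9 and Cd84 differences of -0.28 and -0.38.

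The count of receptors called was 8 and lay between 6 and 8, and 6 of the called receptors differed by 1 or more on the log2 scale. For all genes that added minimum took the count from 7968 to 4168. Leaving out 1 library leaves a tissue with a single library, which is assumed to vary like the other tissue. Samples were not treated as paired by number. The CNS libraries held Y-linked RNA and almost no Xist, and the dLN libraries the reverse, so libraries of the same number did not come from the same mice. Whether they shared an experiment is not given in the sources used here. The replicate differences of the tissues had a correlation of 0.0933 across genes, which does not decide pairing by itself. A fit that included a replicate block called 7828 genes and 7 receptors, and the call of Cd84 was lost (log2 ratio -0.38, adjusted p = 0.0595), as with no filter (0.0679) and with the same median (0.0569). With 2 libraries per tissue, differences of the size seen for Ly9 and Cd84 lie at the limit of what can be told apart.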
